A study of Mus musculus with 23 samples.

Results

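Complement is a system of plasma and tissue proteins that tags cells and debris for removal. The recognition molecule C1q, built of A, B and C chains, activates the proteases C1r and C1s, which cleave C4 and C2, and every route meets at C3. Factor B (Cfb) belongs to the amplifying alternative route, factor I (Cfi) degrades activated C3 and C4, and C5 to C9 form the pore at the end of the cascade. Liver makes most of the plasma proteins, whereas C1q comes mainly from macrophages and dendritic cells, and testicular macrophages are the main resident immune cell of the interstitium.

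The 9 complement genes described here, C1qa, C1qb, C1qc, C1s1, C4b, Cfb, C3, Cfi and C7, were 9 of 27466 genes in the count table. They were selected on measured values of these libraries, namely their levels across in vivo ages and culture days, so those levels are given as a description with no test. Testes of wild-type CD-1 mice were taken at 6.5 days postpartum (dpp) and explants of them were grown for 4, 16 or 30 days (D4, D16, D30). Fresh testes of 10.5 dpp, of 22.5 dpp and of 36.5 dpp had the same ages as the D4, D16 and D30 explants. Controlled slow freezing (CSF) and thawing preceded analysis of some 6.5 dpp testes, and culture of 1 D30 library. The medium was alpha-MEM with serum replacement and retinol, each cultured library is a pool of explants whose necrotic centres had been cut away, and the in vivo libraries are of whole testis.

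Libraries held 28351546 to 69029328 counts, and 21 libraries were used. There were 4 libraries of 6.5 dpp testes (1 fresh, 3 CSF), 3 of 10.5 dpp, 3 of 22.5 dpp and 2 of 36.5 dpp, and the explants gave 3 for D4, 2 for D16 and 4 for D30 (3 fresh, 1 CSF). The 6.5 dpp fresh replicates 2 and 3 had the same count in every gene and were counted as 1 library. The 6.5 dpp fresh replicate 1 was left out because its profile resembled cultured tissue. In it C3 stood at 58.4 CPM (counts scaled to the library total), against 1.95 to 3.30 CPM in the other 6.5 dpp libraries, C7 at 66.1 against 3.00 to 7.98 CPM, and C4b at 21.2 against 0.686 to 1.87 CPM. Not every member differed in this way. C1qa (14.8 CPM), C1qb (9.64 CPM), C1qc (11.4 CPM) and C1s1 (62.7 CPM) were within the range of the other 6.5 dpp libraries. Cfi, at 16.4 CPM, was slightly below their 17.4 to 25.3 CPM, whereas D4 had 47.3 to 52.4 CPM.

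Each member was found in every library, and the lowest count of any member was 1, for Cfb in a 6.5 dpp CSF library. The members lie on chromosome 4 (C1qa 136895916-136898844, C1qc 136889801-136892936, C1qb 136880126-136886200), chromosome 6 (C1s1 124530344-124542392), chromosome 17 (C4b 34728139-34743902, Cfb 34856374-34862514, C3 57203967-57228136), chromosome 3 (Cfi 129836727-129875332) and chromosome 15 (C7 4987750-5063773) of GRCm38. The C1q genes are neighbours. C4b and C1s1 have close copies, C4a and C1s2, so their reads may be shared, and Cfi overlaps the long noncoding gene Gm36180, whose reads cannot be told apart where the counting ignored strand.

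Across the culture, the members fell into distinct courses, shown in the plot of CPM by library. The C1q genes were at their lowest level at D4 and within the in vivo range again at D16. C3, C7 and C4b were low before 22.5 dpp in vivo and high from D4 in culture. Cfi and C1s1 were lower in the older testes and high at every culture day, and Cfb was low throughout.

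**Figure D1:**
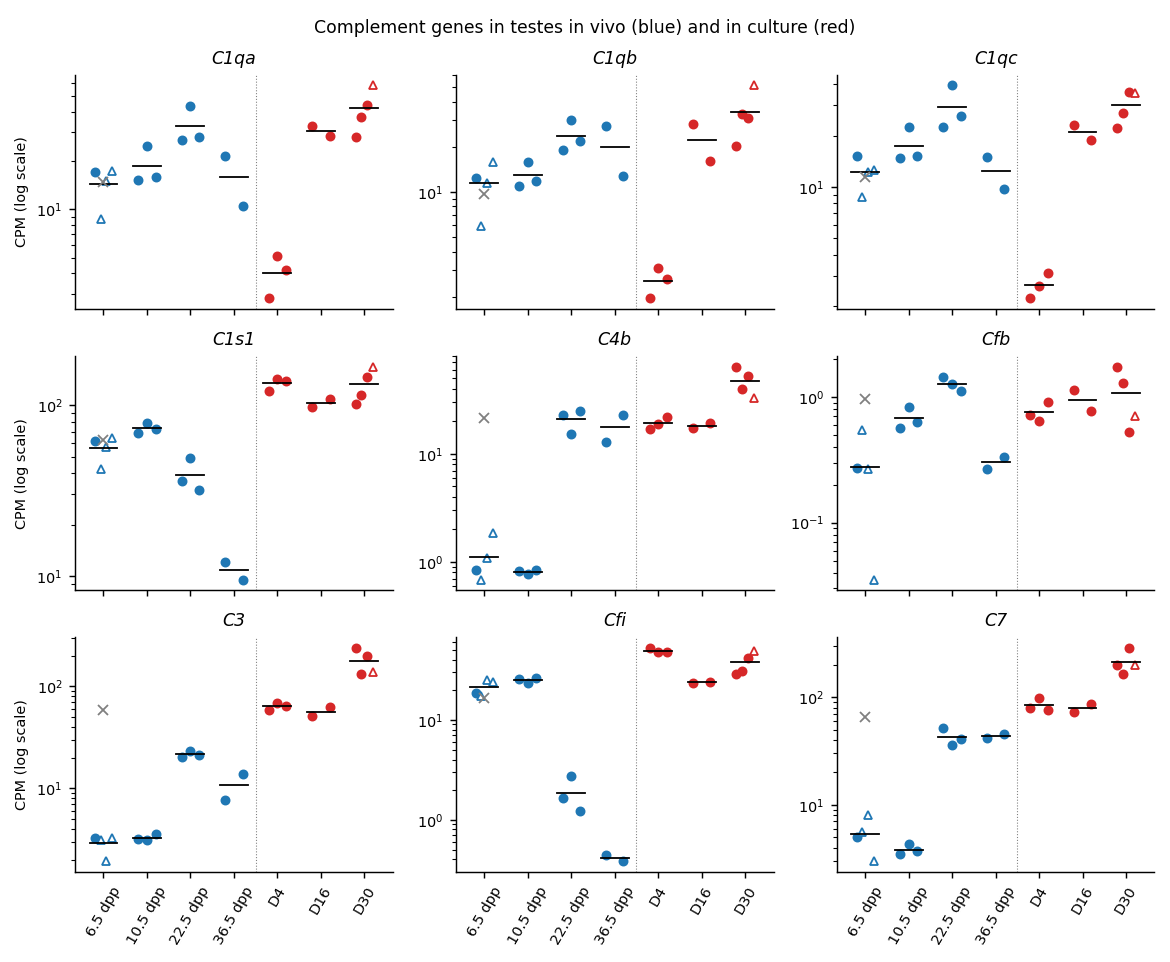
CPM of each member (log axis) in every library, by in vivo age (blue) and culture day (red). Filled circles are fresh libraries, open triangles CSF libraries, black bars the mean, and the grey cross the 6.5 dpp fresh library left out. C1q genes are lowest at D4, and Cfi and C3 have the largest ratios of D30 over 36.5 dpp.

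C1qa, the A chain of C1q, stood at 2.81, 5.11 and 4.20 CPM in the D4 libraries and at 15.1, 24.6 and 15.8 CPM in the 10.5 dpp testes. The groups did not overlap, and the mean at 10.5 dpp was 4.58 times that at D4. C1qb gave 1.95 to 3.12 CPM at D4 against 10.96 to 15.8 CPM at 10.5 dpp, a ratio of 5.04, and C1qc gave 2.23 to 3.13 against 14.8 to 22.3 CPM, a ratio of 6.54. All 3 chains were also below the 6.5 dpp testes from which the explants came, by 3.57 times for C1qa, 4.47 times for C1qb and 4.58 times for C1qc.

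By D16 the C1q chains overlapped with the 22.5 dpp testes. C1qa stood at 32.8 and 28.5 CPM at D16 against 26.7, 43.3 and 27.8 CPM at 22.5 dpp. At D30 it reached 28.03, 37.4 and 44.0 CPM in the explants never frozen and 58.5 CPM in the thawed one, above both 36.5 dpp libraries (21.2 and 10.5 CPM). C1qc was likewise above, by 2.44 times, whereas C1qb overlapped, with 20.2 to 51.6 CPM at D30 against 12.7 and 27.5 CPM at 36.5 dpp. Per length, the mean ratio of C1qb to C1qa was between 0.613 (D4) and 0.763 (D30) in 6 of the stages and 1.20 at 36.5 dpp.

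The promoters of the C1q genes are shown beside those of C3 and C7, whose levels followed another course. The 250 bases before the annotated start are printed 5′ to 3′ on the gene's own strand (RefSeq, GRCm38.p6, minus strand, at chr4:136886201-136886450 for C1qb, chr4:136892915-136893164 for C1qc, chr17:57228137-57228386 for C3 and chr15:5063774-5064023 for C7). Capitals mark a match on either strand to GAGGAA (PU.1 box), TTGCNNAA (C/EBP), GGGANTTTC (NF-kB), GAAANNGAA (interferon element) or TTCNNNGAA (STAT). Among the 9 members, 5 had an entry in the promoter table, with C1s1 having 2 windows. The C1qc window reaches into the gene span given above (to 136892936), so its last bases lie within the gene. Bases shortly after the start were found in a GENCODE transcript for C1qc and C3, and were not found for C1qb and C7.
C1qb: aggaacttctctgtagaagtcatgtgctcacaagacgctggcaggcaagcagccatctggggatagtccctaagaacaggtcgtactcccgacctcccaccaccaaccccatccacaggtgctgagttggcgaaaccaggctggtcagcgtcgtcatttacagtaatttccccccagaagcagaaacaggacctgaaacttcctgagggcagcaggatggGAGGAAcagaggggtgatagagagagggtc
C1qc: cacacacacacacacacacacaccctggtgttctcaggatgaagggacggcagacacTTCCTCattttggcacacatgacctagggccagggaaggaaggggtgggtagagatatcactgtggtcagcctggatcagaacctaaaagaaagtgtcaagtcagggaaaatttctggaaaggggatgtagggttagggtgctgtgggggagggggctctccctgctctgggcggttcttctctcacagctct
C3: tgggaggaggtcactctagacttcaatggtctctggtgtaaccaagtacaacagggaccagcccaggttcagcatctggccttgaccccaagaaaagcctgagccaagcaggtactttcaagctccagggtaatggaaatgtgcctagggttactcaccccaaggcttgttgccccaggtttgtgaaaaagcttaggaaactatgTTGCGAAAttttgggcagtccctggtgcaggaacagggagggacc
C7: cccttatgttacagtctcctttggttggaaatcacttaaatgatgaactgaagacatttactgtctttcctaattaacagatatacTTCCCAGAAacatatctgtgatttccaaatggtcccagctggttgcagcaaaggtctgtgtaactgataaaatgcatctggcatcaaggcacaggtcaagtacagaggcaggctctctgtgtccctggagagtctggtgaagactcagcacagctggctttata

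C1qb and C1qc each held 1 match to GAGGAA, the core bound by PU.1, a transcription factor of macrophages, and 23.3% of all 32851 promoter windows held one. C3 held 1 match to the C/EBP letters, present in 9.56% of windows, and C7 held 1 match to the STAT letters, present in 7.02%. C1s1, whose windows are not printed, also had 1 match to the C/EBP letters, in 1 of its windows. C1qa had no window. The NF-kB and interferon letters, present in 0.941% and 7.13% of windows, had no match in these windows. Matches did not overlap each other, and they are a description of the letters and not of binding.

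Macrophage markers were also low at D4. Of 12 markers, 10 had a lower mean at D4 than at 10.5 dpp, with no overlap in 9, and Cd14, a receptor for bacterial lipopolysaccharide, was among those higher. Csf1r, the receptor for macrophage colony-stimulating factor, had a mean of 4.02 CPM at D4 against 26.5 CPM at 10.5 dpp, and Cx3cr1, the fractalkine receptor, 0.798 against 12.4 CPM. The summed list ran from 104 to 130 CPM at D4, 181 to 231 CPM at 10.5 dpp, 444 to 557 CPM at D16 and 533 to 913 CPM at D30. The sum did not follow the C1q chains everywhere. At 36.5 dpp it was 556 to 560 CPM, where Aif1 alone held most of it, beside 32.9 to 63.7 CPM of summed C1q. Without Lyz2 and Aif1, the sum at 36.5 dpp was 71.5 to 81.7 CPM and overlapped D4 (71.0 to 75.0 CPM). Summed C1q was 6.99 to 10.9 CPM at D4 and did not overlap. At 6.5 dpp the sum of all 12 markers was 106 to 167 CPM and overlapped D4, while the C1q chains did not. At 22.5 dpp it was 296 to 402 CPM, below D16, while the C1q chains overlapped. These differences at 6.5 and 22.5 dpp were absent from the sum without Lyz2 and Aif1. That sum was 84.5 to 123 CPM at 6.5 dpp, above D4 like the C1q chains. At D16 it was 144 to 195 CPM and overlapped 22.5 dpp (177 to 268 CPM). C1qa per Csf1r was between 0.612 and 1.80 in all libraries. The part of the macrophage share in the C1q values was not tested, and in these bulk samples fewer cells of a type and less RNA per cell cannot be told apart.

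**Figure D2:**
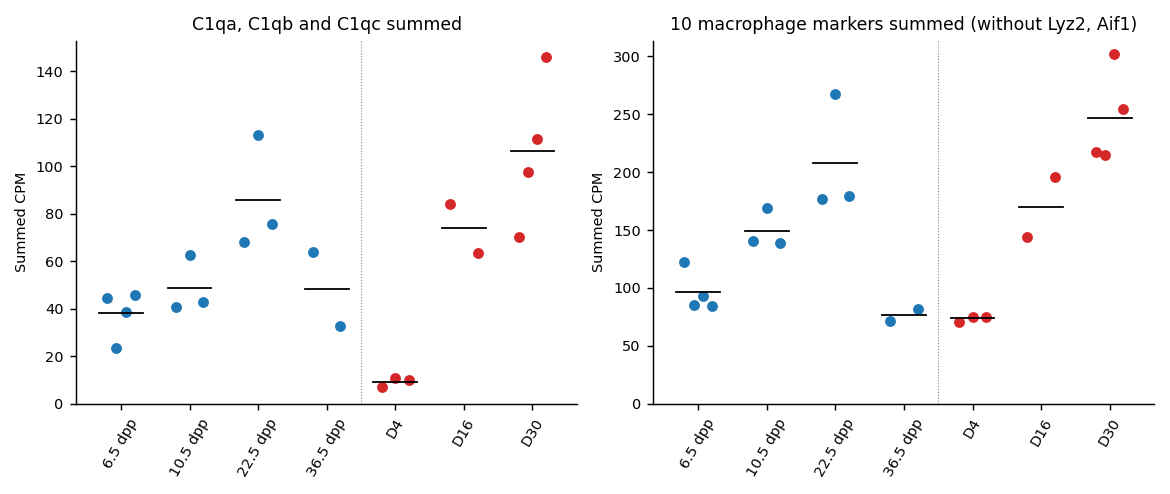
Summed CPM of the C1q chains (left) and of 10 macrophage markers without Lyz2 and Aif1 (right) in each library, with bars at the mean. Both panels are lowest at D4 within the culture series. Lyz2 and Aif1 were left out after their values were seen, since Aif1 alone was at 399 and 433 CPM at 36.5 dpp.

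The genes whose pattern over the 21 libraries was most like each C1q gene, by Pearson r of log2(CPM + 1) among 19246 other genes passing the filter, included markers of the same cells. For C1qa they were Adgre1 (r = 0.94), Spi1, which encodes PU.1 (r = 0.92), and Ms4a6c (r = 0.92). C1qb was most like Ms4a6c, Tyrobp and Rac2, and C1qc most like Csf1r (r = 0.96), Adgre1 and Cx3cr1. The libraries share their groups and depths, and these values are descriptions. The 3 C1q genes had r of 0.95 to 0.98 with each other, and their r with C3 was 0.10 to 0.21.

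C1s1, a protease of the C1 complex, stood at 122, 142 and 139 CPM at D4 against 68.4, 79.2 and 72.2 CPM at 10.5 dpp. In vivo it was at 9.52 and 12.0 CPM at 36.5 dpp, while D30 kept 102 to 168 CPM, a ratio of 12.3 in mean CPM. D16 gave 97.1 and 109 CPM against 36.2, 49.1 and 31.7 CPM at 22.5 dpp. No culture library overlapped with the testes of its age. C1s1 was most like Fez2 (r = 0.99), C1s2 (r = 0.98), its near copy, and Cpne8 (r = 0.98).

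C4b, which carries the C4 thioester protein, was at 16.8, 18.8 and 22.0 CPM at D4 against 0.831, 0.779 and 0.837 CPM at 10.5 dpp, a ratio of 23.6. At D16 (17.2 and 19.4 CPM) it overlapped with 22.5 dpp (22.9, 15.4 and 25.0 CPM). At D30 it reached 33.2 to 64.1 CPM against 12.9 and 22.8 CPM at 36.5 dpp. The share of C4b in the summed counts of C4a and C4b was 18.5% to 25.2% at 10.5 dpp and 81.3% to 84.6% at D4, and in older testes it was 65.2% to 68.2% (22.5 dpp) and 82.1% to 84.4% (36.5 dpp). It ran from 16.1% to 77.9% at 6.5 dpp, and is a share that depends on how reads shared by the copies were counted. Cfb, by contrast, stayed at 0.0353 to 1.74 CPM in all libraries and overlapped between D4 and 10.5 dpp and between D16 and 22.5 dpp. At D30 it was at 1.74, 1.29, 0.529 and 0.703 CPM, above 0.267 and 0.334 CPM at 36.5 dpp, from 9 to 72 counts a library.

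C3, the central protein of the cascade, stood at 59.0, 69.3 and 64.8 CPM at D4 against 3.19, 3.11 and 3.55 CPM at 10.5 dpp. The ratio of means was 19.6. At D16 it was at 50.7 and 62.6 CPM against 20.4, 23.3 and 21.2 CPM at 22.5 dpp. At D30 it was at 237, 131 and 199 CPM without freezing and 137 CPM after CSF, against 7.78 and 13.8 CPM at 36.5 dpp, a ratio of 16.3. The groups did not overlap at any of the 3 culture days.

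C7, a subunit of the terminal complex, was likewise above the testes of the same age at each culture day. It stood at 79.1, 97.5 and 76.1 CPM at D4 against 3.46, 4.28 and 3.69 CPM at 10.5 dpp, a ratio of 22.1. The ratio was 1.86 at D16 and 4.89 at D30, beside testes in which C7 stood at 3.81 ± 0.425 CPM when 10.5 dpp and at 42.9 ± 8.05 CPM when 22.5 dpp (SD, n = 3 each). At 36.5 dpp C7 was at 42.0 and 45.1 CPM, within its 22.5 dpp range, where C3 was below its own. C3 over C7 per length was 0.128 on average at 36.5 dpp and 0.439 at D30. C3 and C7 had r = 0.96 with each other, and C7 and C4b r = 0.96. The genes most like C3 were Sowahd (r = 0.98), Ccn5 and Lrrn4, and those most like C7 were Dact2 (r = 0.98), Ccn5 and Il33, an alarmin.

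Cfi, the protease that cuts C3b and C4b, stood at 52.4, 47.5 and 47.3 CPM at D4 against 25.7, 23.6 and 26.5 CPM at 10.5 dpp. In vivo it was at 1.66, 2.72 and 1.23 CPM at 22.5 dpp and at 0.446 and 0.386 CPM at 36.5 dpp. In culture it kept 23.5 and 24.2 CPM at D16 and 28.9 to 48.8 CPM at D30, so the ratio was 1.94 at D4, 12.7 at D16 and 90.6 at D30. Its nearest patterns were those of Edn1 (r = 0.98), Nt5e and Sdc4.

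**Figure D3:**
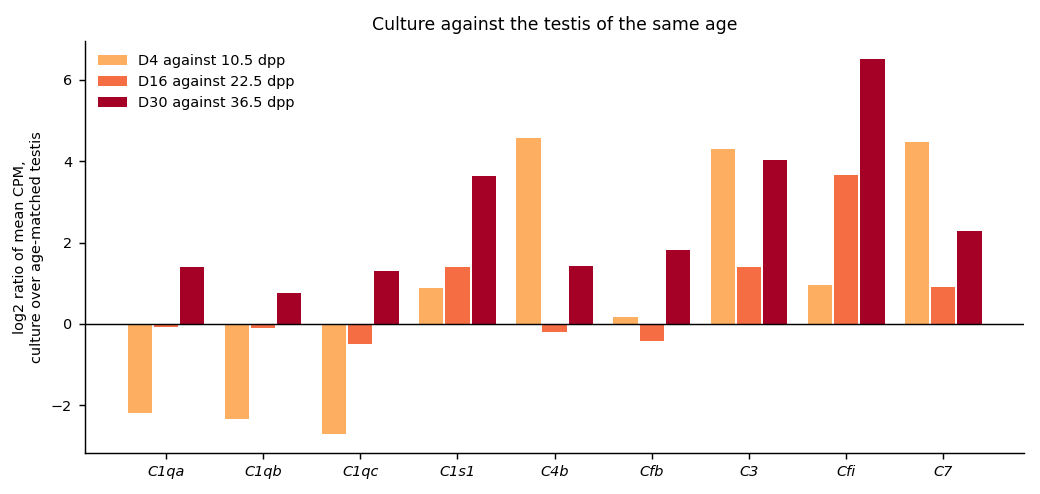
Log2 ratio of mean CPM, culture over the testis of the same age, for each member and culture day. Bars below 0 at D4 belong to the C1q genes, and the tallest bar is Cfi at D30 (6.50). Bars have no error, and the values by library are in the plot of CPM by library.

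At D4, 5 of 9 members lay above 10.5 dpp in every library and 3 below, where 17.3% and 31.2% of all 19255 genes did so. At D16, 4 lay above and 0 below 22.5 dpp, where 29.2% and 21.5% of genes did. At D30, 8 lay above and 0 below 36.5 dpp, where 47.6% and 25.2% did. Against 6.5 dpp, D4 had 6 members above and 3 below, beside 16.5% and 17.8% of genes, and 36.5 dpp had 3 above and 2 below, beside 31% and 46.7%. With the left-out 6.5 dpp library kept, 4 stayed above at D4 and 0 at 36.5 dpp. As these contrasts chose the members, nothing is read from the counts.

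Scaling moved the D30 values. The median gene was 0.60 higher on the log2 CPM scale at D30 than at 36.5 dpp, and with TMM factors, which remove such a shift, the log2 ratio at D30 was 0.76 for C1qa, 0.65 for C1qc, 0.12 for C1qb, 3.39 for C3, 1.64 for C7, 2.98 for C1s1 and 5.86 for Cfi. With RLE factors C1qb was -0.14, and its direction at D30 therefore depends on the scaling. Germ cell markers summed to 7047 to 11147 CPM at 36.5 dpp against 785 to 2119 CPM at D30. Of the 6 markers, 4 were lower at D30 in every library, while 2 had a higher mean there. The part of this difference in makeup was not tested.

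The levels per length, in RPKM (CPM per kilobase of exon), ordered the members at D30 as C7 (79.6 ± 19.5, SD, n = 4), C1s1 (44.6 ± 10.2), C1qa (40.4 ± 12.3), C3 (34.3 ± 9.92), C1qb (31.3 ± 12.0), C1qc (25.1 ± 5.71), Cfi (18.1 ± 4.53), C4b (8.84 ± 2.55) and Cfb (0.387 ± 0.202). Of these, C7 was above every other member in all 4 libraries, and C1s1, C1qa and C3 overlapped.

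Markers of other cell types differed too. The stromal sum was 5739 to 7355 CPM at D4 against 3219 to 3608 CPM at 10.5 dpp, and 1521 to 2224 CPM at D30 against 146 to 234 CPM at 36.5 dpp. At D4 the collagens Col1a1 and Col3a1 made up most of that sum, and Pdgfra went the other way (247 to 291 against 372 to 387 CPM). Endothelial markers summed to 128 to 171 CPM at D30 against 14.0 and 15.1 CPM at 36.5 dpp, and Sertoli markers to 552 to 1048 against 64.2 and 75.8 CPM. All 5 Leydig markers had a lower mean in culture at each day. Hepatocyte markers summed to at most 2.21 CPM in every library, and neutrophil markers to at most 2.05 CPM. Of the T cell markers, Cd3d was at 9.31 and 18.9 CPM at 36.5 dpp and at most 2.99 CPM elsewhere, while Cd3e was at most 0.604 CPM and Cd3g at most 0.386 CPM in the libraries used. The part of these cell types in the C3, C7, C1s1 and Cfi values was not tested.

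Freezing was the one comparison that did not choose the members. Of 9 members, 0 were called between CSF and fresh tissue at 6.5 dpp and D30 together (edgeR's quasi-likelihood test, Benjamini-Hochberg adjustment), where 0% of 19758 genes were called and 1170 had an unadjusted p under 0.05. No member had one, and DESeq2 also called 0 members. The log2 difference ranged from -0.35 ± 0.25 (SE) for C3 to 0.40 ± 0.22 for Cfi, whose edgeR adjusted p was 0.679. With 1 fresh library at 6.5 dpp and 1 CSF library at D30 the fit leans on few samples, and a missed threshold does not show that freezing leaves these genes alike.

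The other 49 genes of the pathway were listed by role, and 41 passed the filter on low counts. At D4 against 10.5 dpp, 6 rose and 1 fell (called at a fold of 2 and an adjusted p of 0.05), beside 3.45% and 2.43% of all genes. In each comparison of culture with testis, rose and fell mean higher and lower in culture, and not a change over culture days. C6, another subunit of the terminal complex, rose from 0.151 to 3.81 CPM (log2 fold change 4.72 ± 0.50 SE, edgeR adjusted p = 6.22e-06), and C1s2 rose by 1.09 ± 0.18 (adjusted p = 0.000814). Itgax, an integrin that binds cleaved C3, rose by 2.62 (adjusted p = 0.00312) and Vtn, vitronectin, an inhibitor of the terminal complex, by 1.37 (adjusted p = 0.00685). Vsig4, a macrophage receptor for cleaved C3, fell from 1.54 to 0.0670 CPM (log2 fold change -4.40 ± 0.76, adjusted p = 0.00107). With 6.5 dpp fresh replicate 1 kept in the fit, 2 rose and 1 fell. DESeq2 gave 3 falls, as did the fit without 6.5 dpp CSF replicate 3, and leaving out either D16 library or the D30 CSF library gave 2.

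At D16 against 22.5 dpp, 12 rose and 3 fell, beside 8.83% and 8.24% of all genes. Of the named genes, taken by the smallest p, Vtn rose by 2.29 on the log2 scale and Serping1, the C1 inhibitor, by 1.23 (edgeR adjusted p at most 0.00019), and Masp1, a lectin-pathway protease, by 1.48. Vsig4 was lower at D16 than at 22.5 dpp by 3.56, Cpn1, which inactivates C3a and C5a, by 1.70, and Hc, which encodes C5, by 1.32 (edgeR adjusted p = 0.0296). The mean of Vsig4 was 0.0670 CPM at D4 and 0.935 CPM at D16, beside 1.54 CPM at 10.5 dpp and 10.0 CPM at 22.5 dpp. Without D16 replicate 2, 6 rose and 1 fell.

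At D30 against 36.5 dpp, 18 rose and 14 fell, beside 25.2% and 29.8% of all genes. Serping1 rose from 15.8 ± 0.607 to 274 ± 57.3 CPM (log2 fold change 3.47, adjusted p = 7.31e-09), C1s2 by 2.83, C1ra, the protease that activates C1s, by 2.29 and Clu, clusterin, by 2.42. Of 8 receptors, 6 rose and 2 fell, and C5ar2, among the risen, had 3 counts or fewer in each 36.5 dpp library. Among membrane regulators, which protect cells from complement, 5 of 8 fell, including Cd46 (-2.93), Cd59b (-2.68) and Cd55 (-2.64), and 2 rose, Cr1l (1.66) and Cd59a (1.17). Cr2, a receptor of B cells, fell by 4.83. Cd46 is in mice found mainly in the testis. In vivo, from 6.5 to 36.5 dpp, 21 rose and 12 fell beside 35.4% and 32% of genes, with Cd55b (12.44), Csmd1 (5.43), C8g (3.59) and Cd46 (3.48) rising most clearly, and Masp1 (-2.58), Colec12 (-2.38), Susd4 (-1.98) and Serping1 (-1.36) falling. Cd55 and Cd55b, and Cd59a and Cd59b, are near copies of each other, so reads may be shared.

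**Figure D4:**
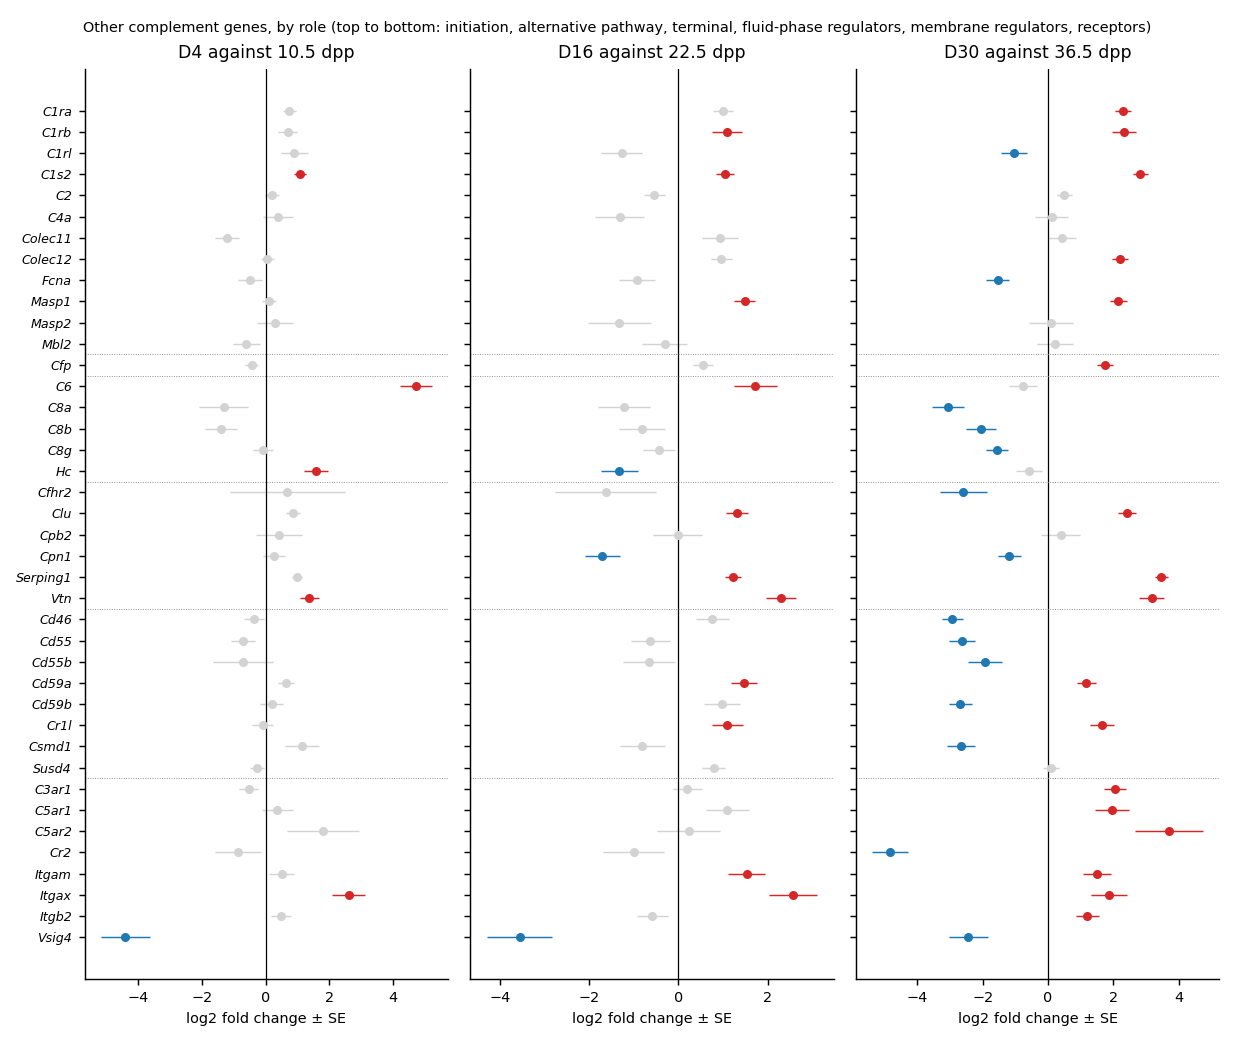
Log2 fold change (± SE) of other pathway genes (not every one is shown), by role from top to bottom, at each culture day against the testis of the same age. Red points were higher in culture, blue points lower and grey points not called. Some grey points had an adjusted p under 0.05 but a fold below 2, such as Serping1 at D4 (edgeR adjusted p = 0.00085). Serping1, C1s2 and C1ra are at 2.29 to 3.47 at D30, and Cd46, Cd55 and Cr2 are on the other side.

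Against testes of 6.5 dpp, the age at which culture began, D4 had 8 pathway genes higher and 3 lower, beside 6.87% and 5.82% of genes. C6 (3.94), C1s2 (1.48), Serping1 (1.30) and Clu (1.62) rose, and C8b (-2.48), Mbl2 (-1.18) and Colec11 (-1.05) fell, the last 2 with adjusted p of 0.0429 and 0.0452. With fresh libraries alone, 5 rose and 0 fell, so none of these falls was called, and with 6.5 dpp fresh replicate 1 kept, 4 rose and 1 fell. A single fall, C8b, was called without 6.5 dpp CSF replicate 2 or 3, 10.5 dpp replicate 1 or 3, or any 1 of the D4 libraries. The comparisons with 6.5 dpp and with 10.5 dpp share the D4 libraries.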

How the data were processed

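RNA was sequenced from 23 libraries of testes and explants (single-end, poly(A)-selected). As deposited, the values are raw counts per gene, which the authors made with STAR 2.7.3a (GRCm38) and HTSeq 0.12.4 in intersection-nonempty mode; its strand setting was not given in the sources used here. Of 27466 identifiers, 27373 matched a symbol, and 0.0207% of counts lay on the rest. CPM used the library total, and RPKM the exon bases of GENCODE. Pathway genes were tested with edgeR 4.0.16 (R 4.3.3; TMM, filterByExpr, quasi-likelihood F test, 7 stages in 1 fit with frozen and fresh together, 9 groups for freezing), with p-values adjusted over all genes, and called at an absolute log2 fold change of 1 and adjusted p of 0.05. DESeq2 1.42.0, other scalings, filters and thresholds were alternatives. The study calls its replicates biological. The fit was also run on simulated counts in which few genes changed, as many up as down. That setting does not cover a shift as wide as the one at D30, and its outcome is not reported here. Named genes were the members, the 4 called pathway genes with the smallest p per comparison and direction, and the 3 genes most like each member. Some named genes are not reported here. The members and lists were chosen with earlier results of these data known. Genes at 3 counts or fewer in all libraries of a group are given no fold in the text, but stayed in the fits, the counts and the plot. Such were C5ar2, called higher at D30 against 36.5 dpp, and Cfhr2, called higher at 36.5 dpp against 6.5 dpp. Reads are not independent molecules, so counts carry more than counting error.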

Additional observations from a re-analysis of the deposited data

Results flagged for a closer look

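In 66 groups of 4 libraries checked for a library far from the others, 5 were flagged, where chance alone flags about 1 in 20. C3 in 6.5 dpp CSF replicate 2 stood at 1.95 CPM against 3.12 to 3.30 CPM in the others. At 6.5 dpp, C8b stood at 5.78 CPM in CSF replicate 3 (others 2.34 to 2.80) and Colec11 at 1.80 CPM in fresh replicate 2 (others 2.65 to 2.79). For Colec11 the flagged library was the only fresh one used at that age, so the flag and freezing cannot be told apart. In D30 fresh replicate 3, Serping1 stood at 359 CPM (others 238 to 255) and Vsig4 at 2.29 CPM (others 0.314 to 0.507).

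The culture effect at D30 differed from that at D4 in 22 pathway genes (12 higher, 10 lower), beside 41.3% of all genes, by the difference of contrasts in edgeR's fit, a test added after the values were seen. Among named genes the log2 difference was higher at D30 for Serping1 (2.49), Colec12 (2.14), Masp1 (2.04), Vtn (1.80), C1s2 (1.74), Colec11 (1.64), Clu (1.55) and C1ra (1.54). It was lower for C6 (-5.49), Cr2 (-3.96), Csmd1 (-3.81), Cd59b (-2.88), Cd46 (-2.57), Hc (-2.16), Cd55 (-1.94), C8g (-1.48) and Cpn1 (-1.44). Their edgeR adjusted p ran from 3.22e-06 for Serping1 to 0.0269 for Colec11. For the members this difference was not tested: C1qa was below 10.5 dpp at D4 and above 36.5 dpp at D30 in every library, with log2 ratios 3.60 apart, and C1qc likewise, 4.00 apart.

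The 6.5 dpp fresh replicate 1, left out of the main comparisons, had C4b at 21.2 CPM, Cfb at 0.956 CPM, C3 at 58.4 CPM and C7 at 66.1 CPM, each above the other 6.5 dpp libraries.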

How the results depend on the processing

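Counts of called pathway genes are given as risen and fallen. With a log2 fold of 2 and an adjusted p of 0.001 they were 1 and 0 at D4 against 10.5 dpp, 1 and 0 at D16, 9 and 7 at D30, 16 and 2 for 36.5 against 6.5 dpp, and 2 and 0 for D4 against 6.5 dpp. With 6.5 dpp fresh replicate 1 kept they were 2 and 1, 7 and 2, 15 and 12, 15 and 13, and 4 and 1. DESeq2 gave 3 fallen at D4 and 6 at D16, library size alone 2 fallen at D4, and no filter 1 fallen at D4 against 6.5 dpp. Fresh libraries alone gave 5 fallen at D16, and 5 risen and 0 fallen at D4 against 6.5 dpp. Fits of only the libraries compared gave 3 fallen at D4 and 1 at D16. Leaving out 1 library gave 4 to 6 risen and 1 to 3 fallen at D4, 6 to 15 and 1 to 5 at D16, 16 to 18 and 10 to 14 at D30, 18 to 22 and 11 to 12 for 36.5 against 6.5 dpp, and 7 to 9 and 1 to 4 for D4 against 6.5 dpp. The cause was not tested. Freezing called 0 members in each fit that could be made, and none could be made without 6.5 dpp fresh replicate 2 or the D30 CSF library. The labels give replicates of different stages a shared number and no pairing. The r of same-numbered deviations was 0.47, 0.02 and 0.007 for D4 and 10.5 dpp, against -0.32 to 0.26 for other numbers. It was 0.62 and 0.74 for D16 and 22.5 dpp, and -0.33 and -0.62 for D30 and 36.5 dpp. In groups of 2 libraries, D16 and 36.5 dpp, the deviations mirror each other, so those values cannot decide on pairing. The replicate block gave 1 fallen at D4 against 6.5 dpp, within 1.5 times elsewhere. Of 153 member ratios without 1 library, 4 changed sign, each for C1qa or C1qb at D16; TMM factors moved 7 of 27 ratios by over 1 SD and RLE factors 11, reversing only C1qb at D30.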
